A study of Mus musculus with 38 samples.

Results

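The skeletal muscle myosin heavy chain genes are described here by the promoters at which their transcription started in the mouse soleus. Members were the tag clusters whose highest position lay within 500 bp, on the same strand, of a GENCODE M21 5′ end of Myh1, Myh2, Myh3, Myh4, Myh7 or Myh8. Of the 10819 clusters of the deposited table, 9615 lay within this distance of an annotated 5′ end, and 9 of them belonged to 5 of the 6 listed genes. Myh8 had no such cluster, and the only cluster inside that gene lay in the gene body. For each gene, the cluster with the highest mean level in the first sequencing run is called its leading promoter, and 4 further clusters belonged to Myh4 and Myh7.

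Each library came from the soleus, a postural muscle of the lower leg, of 1 male C57BL/6J mouse of about 8 weeks, sampled at zeitgeber time 22. Pre mice were fed on day 1, Mid mice had their food removed on day 2 so that they could enter torpor, and Post mice were sampled on day 3 after food was returned. HiT mice were fasted at 32 °C, and Dep mice were fasted but kept from torpor by gentle touching. Fed mice kept their food on day 2 at a low ambient temperature, and the study describes the torpid mice as fasted at a low one too. It names a high ambient temperature for HiT only. The labels describe the feeding of the HiT and Fed mice differently from the methods of the study, and the description in the methods is used here. No mouse carried a transgene, and the methods state that the lateral or both soleus muscles were taken, so that the mass and side of muscle could differ between libraries. The split into runs rests on the form of the library codes. The set called the first sequencing run held 28 libraries (4 Pre, 8 Mid, 4 Post, 4 HiT, 4 Fed and 4 Dep). The set called the second run held 10 (2 Pre, 5 Mid and 3 Post). The study gives these numbers of Pre, Mid and Post libraries for its first and second experiments. It does not state whether the HiT, Fed and Dep libraries were sequenced together with those of the first experiment, and this was not tested. Per the methods, the second run came from a separate batch of mice, so that mice and sequencing run cannot be told apart between the runs.

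Myosin heavy chains are the motor proteins of the thick filament, and the isoform that a fibre makes sets its contraction speed. Myh7 encodes the slow type I chain, Myh2 the fast IIa chain, Myh1 the fast IIx chain and Myh4 the fastest, IIb. Myh3 and Myh8 encode the embryonic and perinatal chains, which are made in development and in regenerating fibres. The fast and developmental genes lie side by side on chromosome 11 and Myh7 lies on chromosome 14 beside its cardiac relative Myh6. The mouse soleus is known for slow and IIa fibres, and IIb fibres are rare in it.

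The leading promoters are shown because they differ in how much they varied between mice, while those of the fast genes share sequence. On chromosome 11, plus strand, the tag peaks of the leading promoters lay at 67078300 for Myh3, 67171066 for Myh2, 67200102 for Myh1 and 67237812 for Myh4. The Myh7 peak lay at 54994548 on the minus strand of chromosome 14. These are mm10 coordinates. The peaks of Myh2, Myh3 and Myh7 were at an annotated GENCODE 5′ end, which for Myh2 belongs to a transcript annotated as a retained intron. The Myh1 peak was 9 bases before such an end. The Myh4 peak was 217 bases before the GENCODE 5′ end of that gene and exactly at its RefSeq start. Sequences from RefSeq on GRCm38.p6 were found for all 6 listed genes. The following stretches end with the base before the RefSeq start. Capitals mark 3 sets of letters, which are 2 stretches found by comparing the promoters of Myh1, Myh2, Myh4 and Myh8, and the letters TATAAA, for which Myh7 has the similar run TATATA.
Myh4, chr11:67237612-67237811, plus strand: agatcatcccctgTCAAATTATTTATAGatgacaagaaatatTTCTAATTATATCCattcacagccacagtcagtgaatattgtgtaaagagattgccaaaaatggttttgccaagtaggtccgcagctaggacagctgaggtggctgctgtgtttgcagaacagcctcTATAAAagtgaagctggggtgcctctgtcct
Myh1, chr11:67199882-67200101, plus strand: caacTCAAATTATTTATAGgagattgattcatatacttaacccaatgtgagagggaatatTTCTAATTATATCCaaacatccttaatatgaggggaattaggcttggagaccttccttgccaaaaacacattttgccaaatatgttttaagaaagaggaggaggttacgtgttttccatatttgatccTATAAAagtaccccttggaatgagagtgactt
Myh2, chr11:67170847-67171026, plus strand: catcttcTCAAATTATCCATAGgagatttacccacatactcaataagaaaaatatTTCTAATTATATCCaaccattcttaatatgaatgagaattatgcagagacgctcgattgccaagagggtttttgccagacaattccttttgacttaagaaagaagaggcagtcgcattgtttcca
Myh8, chr11:67277004-67277123, plus strand: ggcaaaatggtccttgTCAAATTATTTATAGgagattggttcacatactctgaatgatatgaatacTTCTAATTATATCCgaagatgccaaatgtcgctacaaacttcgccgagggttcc
Myh3, chr11:67078250-67078299, plus strand: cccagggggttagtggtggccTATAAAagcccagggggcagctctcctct
Myh7, chr14:54994550-54994599, minus strand: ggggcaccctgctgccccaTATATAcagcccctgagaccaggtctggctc

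The window of Myh2 ends before its TATAAA, because the RefSeq start of that gene lies 39 bases before the tag peak. The stretch TTCTAATTATATCC was the longest run of letters common to the 250 bases before the start of Myh1, Myh2, Myh4 and Myh8. Among 32851 RefSeq promoters of this length, searched on both strands, 4 held it (0.0122%), those of these 4 genes. The stretch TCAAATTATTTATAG was the longest common to Myh1, Myh4 and Myh8. Myh2 matched 13 of its 15 letters, and the form TCAAATTATNNATAG was again present in 4 promoters (0.0122%), those of the same 4 genes. The stretches were chosen from these sequences, so the shares are a description. Myh3 and Myh7 did not hold either one. On the strand of the gene, TATAAA began 31 bases before the tag peak of Myh4, 32 before that of Myh1 and 29 before those of Myh2 and Myh3, and overlaps neither stretch there. Myh4 held another copy farther upstream. Its reverse, TTTATA, lies inside the second stretch. TATATA began 32 bases before the Myh7 peak. TATAAA occurred in 12.4% of all promoters on either strand, and between 40 and 15 bases before the start on the gene's strand in 1.99%. A match is a string of letters, not a shown binding site.

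Levels are given as counts per 1000000 tags in clusters (CPM) after TMM normalisation of each run. CAGE yields 1 tag per captured RNA 5′ end, so levels of promoters need no division by length. Tags that began inside a gene are not counted in them. The balance between genes differed by run. Myh1 had a median of 29.4% of member tags in the first run and 7.13% in the second. For Myh2 these medians were 28.2 and 57.9%. Levels of different genes are therefore compared as tags, not as amounts of RNA. In the first run the libraries held 18257657 to 39176649 tags, and the member clusters took 0.212 to 0.455% of them (median 0.349%). In the second run the libraries held 9359994 to 20914855 tags, with 0.119 to 0.149% in member clusters. In bulk muscle, fewer fibres of a type and less RNA per fibre cannot be told apart.

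In the first run, Myh7, Myh1 and Myh2 stood at like levels of tags and Myh4 ranged over nearly 3 orders of magnitude between single muscles. The leading promoter of Myh7 ranged from 852 to 1491 CPM over the 28 libraries (median 1188), that of Myh1 from 681 to 1412 (median 1028) and that of Myh2 from 672 to 1254 (median 935). The leading promoter of Myh4 ranged from 2.62 to 1674 CPM (median 77.2), a 640.3-fold span, with 69 to 31435 tags. Myh3 ranged from 1.62 to 11.3 CPM (median 4.80). The ranges of Myh7, Myh1 and Myh2 overlapped one another, and Myh3 lay below all 3 in every library.

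**Figure D1:**
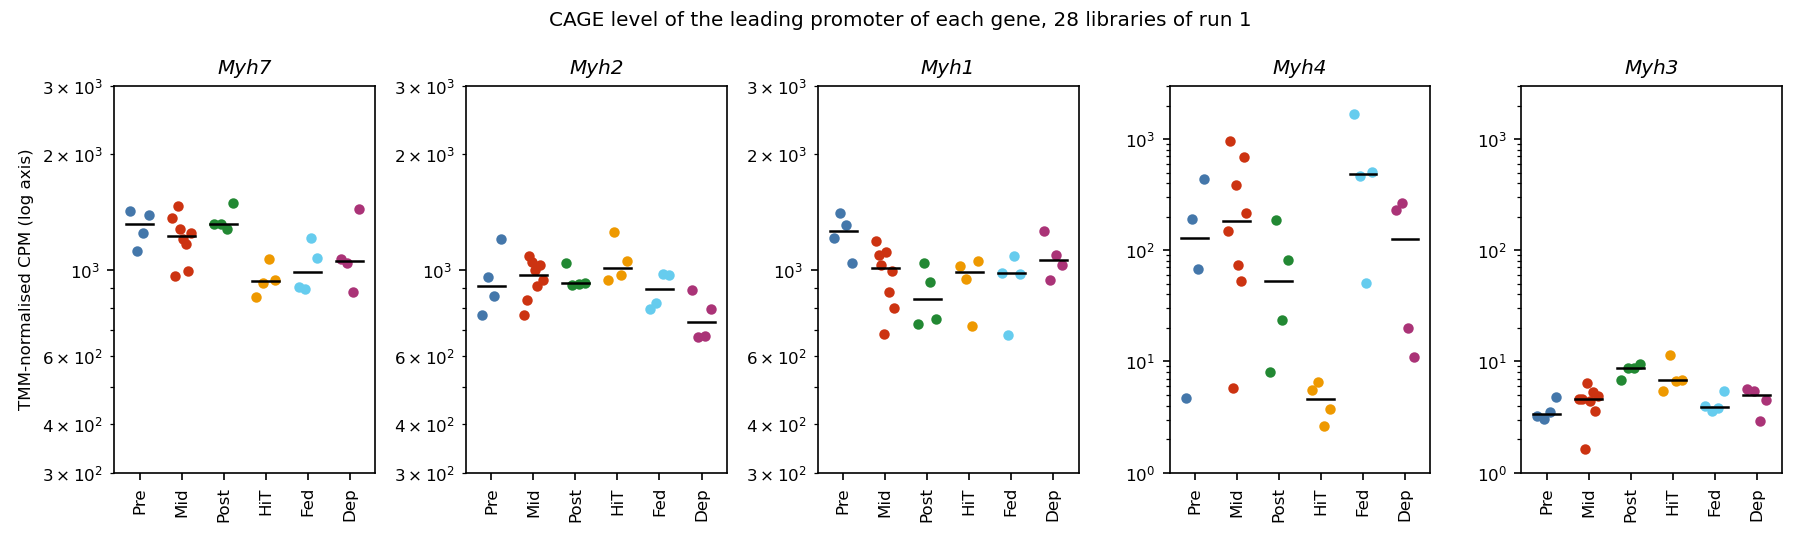
TMM-normalised CPM of the leading promoter (vertical log axis; the 3 panels on the left run from 300 to 3000, the others from 1 to 3000) in each library of the first run, by group, with the group median as a bar. Myh4 spread from 2.62 to 1674 CPM, whereas Myh7, Myh2 and Myh1 stayed within 852 to 1491, 672 to 1254 and 681 to 1412 CPM.

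Myh4 was also unusual in its spread within groups. After removal of the group means, the SD of its log2 level was 2.20, and 19 of the 10567 clusters with a mean of 1 CPM or more had a larger SD. The corresponding SDs were 0.20 for Myh7, 0.19 for Myh2 and 0.25 for Myh1, beside a median of 0.19 over all these clusters, and 0.43 for Myh3. In the second run the SD of Myh4 was 1.24, larger than in all but 162 of 10721 clusters.

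By the tags of the member clusters of each library, which do not depend on the scaling between libraries, the median share in the first run was 36.5% for Myh7, 29.4% for Myh1, 28.2% for Myh2, 2.33% for Myh4 and 0.141% for Myh3. Myh7 held 21.3 to 46.3%, Myh1 19.9 to 40.5% and Myh2 17.9 to 39.4%. The share of Myh4 ran from 0.0943% in a HiT muscle to 38.4% in Fed replicate 1, where Myh7 and Myh2 were at their lowest shares of 21.3 and 17.9%. The shares of a library add up to a fixed total, so a high share of Myh4 lowers the others. By level, Myh7 in this library stood at 907 CPM, within the Fed range of 894 to 1215. In the 4 HiT muscles Myh4 had 0.0943 to 0.207% of the tags, and Myh2 had 33.1 to 39.4%. In the Dep muscles Myh2 had 22.6 to 25.3%, with no overlap with HiT. In the Post muscles Myh7 had 38.6 to 46.3%.

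**Figure D2:**
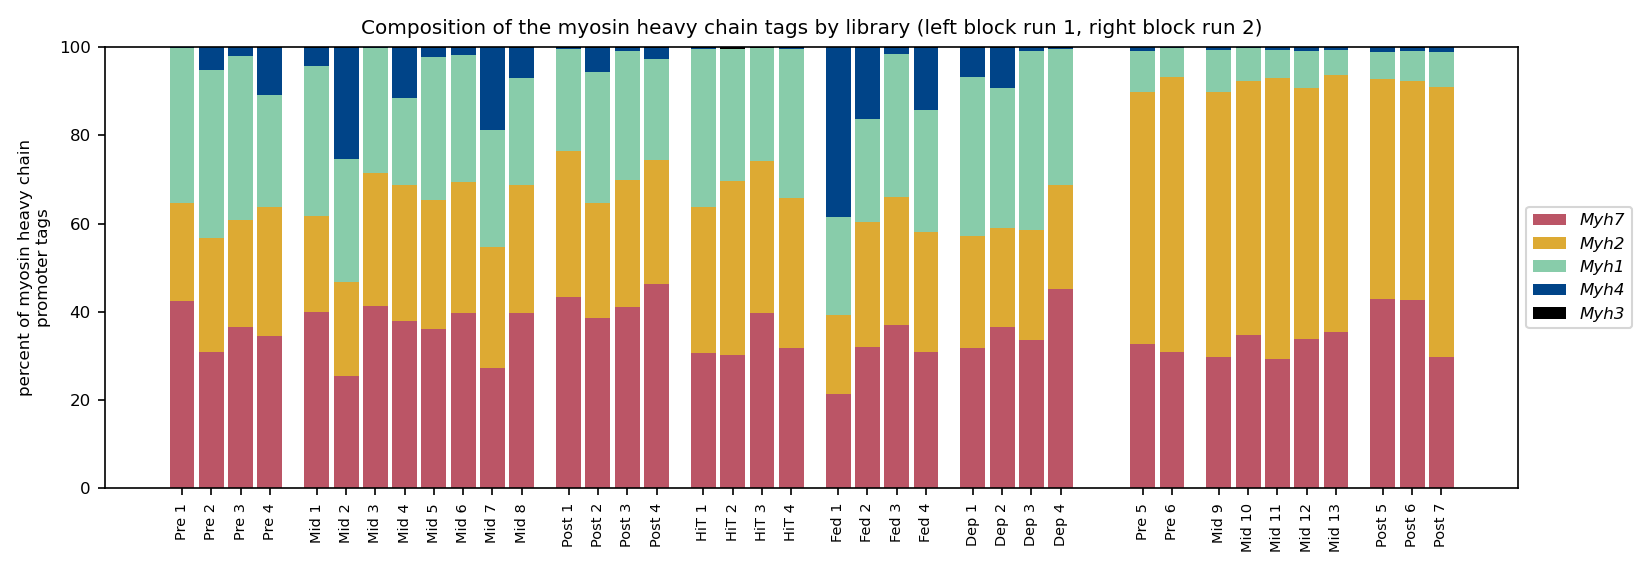
Percent of the tags of all member clusters that fell to each gene (vertical axis, stacked), 1 bar per library, with the 28 libraries of the first run at the left and the 10 of the second run at the right. Myh4 reached 38.4% in Fed replicate 1 and lay between 0.0943 and 0.207% in the HiT libraries, and Myh1 held 5.70 to 9.46% in the second run against 19.9 to 40.5% in the first.

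Differences between groups were tested with the quasi-likelihood F test of edgeR over all clusters with any tag, 1 fit per run, and called at a Benjamini-Hochberg FDR below 0.05. Across the 6 groups of the first run 5 of the 9 member clusters were called, whereas 70.6% of all 10776 clusters were. The 5 were the leading promoters of Myh3 (FDR = 0.000973), Myh7 (FDR = 0.0112) and Myh2 (FDR = 0.0431) and both clusters of Myh4 (FDR = 0.00496 and 0.00479). The Myh1 promoter had an FDR of 0.0629, and passed with the likelihood ratio test (FDR = 0.0429), DESeq2 (FDR = 0.0274) and upper-quartile scaling (FDR = 0.0415). The call of Myh2 was lost without TMM (FDR = 0.187) and with RLE scaling (FDR = 0.0513). It was also lost when any of 18 single libraries was left out, with the highest FDR, 0.144, without Dep replicate 2.

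The IIb gene Myh4 was lowest in the muscles of mice fasted in the warmth. The HiT libraries held 5.53, 6.51, 2.62 and 3.72 CPM. The Fed libraries held 1674, 461, 50.3 and 501 CPM, the Dep libraries 231, 265, 19.9 and 10.96, and the Post libraries 8.11, 188, 23.4 and 81.4. The Pre libraries held 4.66, 192, 67.4 and 438 CPM, and the 8 Mid libraries ran from 5.72 to 969.8 with a median of 183. All HiT libraries lay below every Fed, Dep and Post library, but Pre replicate 1 and Mid replicate 3 lay within the range of HiT.

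From the HiT to Mid, Myh4 was 68.2-fold higher (log2 fold change 6.09 ± 1.48 SE, FDR = 0.00188, n = 4 and 8), and 41.0% of all clusters were called in this comparison, 4 of the 9 member clusters among them. In the other pairs with HiT, which were taken from the same fit after the levels had been seen, the log2 fold change of HiT was -7.18 ± 1.60 against Fed (FDR = 0.000854, 3 of 9 member clusters called, background 43.2%), -5.24 ± 1.48 against Pre (FDR = 0.00735, 4 of 9, background 33.4%) and -4.83 ± 1.45 against Dep (FDR = 0.0145, 3 of 9, background 26.5%). Post was 16.2-fold above HiT (4.02 ± 1.41, FDR = 0.0323, 2 of 9, background 29.2%). These 5 values share the HiT libraries and are not independent. The calls against Mid, Fed, Pre and Dep held when each of the 28 libraries was left out in turn. The call of Post against HiT was lost without Post replicate 2 (FDR = 0.121) and without each of the HiT replicates (FDR = 0.0614 to 0.0726).

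Between the other groups the Myh4 promoter was not called, and its error was large. Its log2 difference stood at 0.85 ± 1.08 for Mid over Pre (FDR = 0.59), -2.07 ± 1.16 from the Mid to Post (FDR = 0.171), -1.08 ± 1.01 from the Fed to Mid (FDR = 0.427) and -1.27 ± 1.103 from the Mid to Dep (FDR = 0.551). It was -3.16 ± 1.30 for Post against Fed (FDR = 0.0794), where the likelihood ratio test (FDR = 0.04) and DESeq2 (FDR = 0.0328) passed the threshold. With single muscles that differed as much as Fed replicates 1 and 3, at 1674 and 50.3 CPM, changes of a few fold were not detectable at these group sizes.

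A second Myh4 cluster lay inside the gene, at 67240796, near the 5′ end of an annotated shorter transcript. In the first run it had 1.03 to 4.61% of the tags of the leading promoter and varied with it (Pearson r = 0.97, Spearman rho = 0.98 across the 28 libraries after removal of group means, given as a description). It was called across the 6 groups, from the HiT to Mid (FDR = 0.00199) and for HiT against Fed (FDR = 0.00107), Pre (FDR = 0.0164) and Dep (FDR = 0.0156). Only 1 to 3 tags per HiT library lay behind these calls, so no fold change is given. The call against Pre was lost without Pre replicate 4 (FDR = 0.0599).

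**Figure D3:**
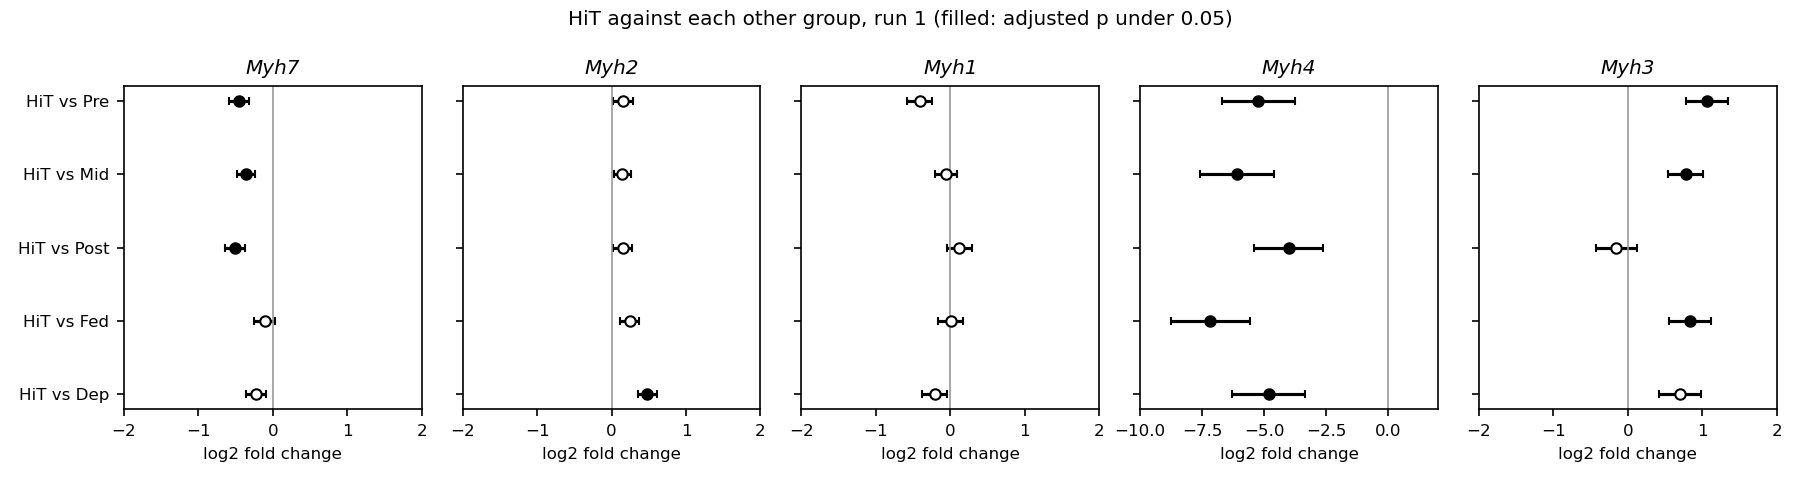
Log2 fold change (horizontal axis, point, with its SE as the bar) of HiT against each other group of the first run for the 5 leading promoters, with filled points for an FDR below 0.05. The axis of Myh4 is wider than the axes of the other genes. Myh4 was lower in HiT against all 5 groups, Myh7 against Pre, Mid and Post, and Myh2 was higher against Dep and Myh3 against Pre, Mid and Fed, among the filled points.

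The slow gene Myh7 was lower in HiT than in 3 other groups, by a small amount. The HiT libraries held 852, 930.2, 1068 and 947 CPM and the Post libraries 1318, 1319, 1278 and 1491, with no overlap. The Pre libraries held 1426, 1124, 1250.2 and 1390.2 CPM, all above HiT, and the 8 Mid libraries ran from 969 to 1464 (median 1230.2). The Fed libraries, at 907, 894, 1215 and 1079.7 CPM, and the Dep libraries, at 1071, 1044, 881 and 1446, overlapped with HiT.

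From the HiT to Mid, Myh7 was 1.28-fold higher (0.35 ± 0.12, FDR = 0.0211). Post was 1.42-fold above HiT (0.51 ± 0.14, FDR = 0.00625), and HiT was below Pre by 1.37-fold (-0.45 ± 0.14, FDR = 0.013). The call against Mid was lost without HiT replicate 1 (FDR = 0.0599) or replicate 2 (FDR = 0.0536). Post was also above Fed, by 1.32-fold (0.40 ± 0.14, FDR = 0.0389, 2 of 9 member clusters called, background 22.2%), but this call was lost without any Post replicate or without Fed replicate 1 or 2 (FDR = 0.0562 to 0.124). Fed lay below Pre by -0.34 ± 0.14 (unadjusted p = 0.02, FDR = 0.104), which passed without Fed replicate 3 (FDR = 0.039). HiT differed from Fed by only -0.11 ± 0.14 (FDR = 0.545), so the low level was not particular to HiT. Myh7 was not called from the Pre to Mid (-0.10 ± 0.12, FDR = 0.574) or from the Mid to Post (0.16 ± 0.12, FDR = 0.324).

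Of the 3 further Myh7 clusters, all near 5′ ends of transcripts annotated as retained introns, 2 had their peaks at 54973438 and 54973097 and 1 at 54987291. Their median tags in the first run were 1.28, 0.759 and 1.01% of those of the leading promoter. None of the 3 was called across the groups of the first run (FDR = 0.246 to 0.52).

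The IIa gene Myh2 had its lowest group median in the Dep muscles, at 888, 672, 678 and 796 CPM, and its highest in HiT, at 942, 1254, 971 and 1059.7. These groups did not overlap, and HiT was 1.39-fold above Dep (0.48 ± 0.13, FDR = 0.00714). Without TMM this call was lost (FDR = 0.115), and HiT replicate 4 had the lowest TMM factor of the run, 0.679. Against Mid, with 767 to 1087 CPM, the Dep libraries differed by -0.33 ± 0.11 (unadjusted p = 0.00726, FDR = 0.116), and 0 of 9 member clusters were called where 2.03% of all clusters were. From the Pre to Mid the log2 fold change of Myh2 was 0.01 ± 0.11 (FDR = 0.968) and from the Mid to Post -0.00 ± 0.11 (FDR = 0.997).

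The IIx gene Myh1 had its highest group median in the fed mice of day 1, but no pair of groups was called. The Pre libraries held 1211, 1412, 1314 and 1044 CPM, the 8 Mid libraries 684 to 1192 (median 1016) and the Post libraries 728, 1045, 933 and 749.6. The Fed libraries held 984, 681, 1087 and 980 CPM and the Dep libraries 1263, 944, 1096 and 1031. The decrease from the Pre to Mid was -0.35 ± 0.14 on the log2 scale (unadjusted p = 0.0202, FDR = 0.0621), and 0 of 9 member clusters were called in this comparison, in which 30.2% of all clusters were. DESeq2 (FDR = 0.0476), upper-quartile scaling (FDR = 0.0231) and the fit of all 38 libraries (FDR = 0.0298) put it past the threshold, with fold changes of -0.35, -0.42 and -0.31. For Post against Pre the log2 fold change was -0.53 ± 0.17 (unadjusted p = 0.00408, FDR = 0.122), where the groups overlapped only by Pre replicate 4, at 1044 CPM, and Post replicate 2, at 1045. HiT differed from Pre by -0.41 ± 0.17 (unadjusted p = 0.0216, FDR = 0.0615), and DESeq2 (FDR = 0.0363) and upper-quartile scaling (FDR = 0.0262) put this past the threshold. The Fed mice, which kept their food, differed from Pre by a like amount, -0.42 ± 0.17 (unadjusted p = 0.0195, FDR = 0.102). Mid differed from Fed by 0.063 ± 0.145 (FDR = 0.763).

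The embryonic gene Myh3 was low everywhere but higher in the refed and in the warm fasted muscles. The Post libraries held 6.78, 8.74, 8.73 and 9.46 CPM and the HiT libraries 5.44, 11.3, 6.63 and 6.84. The Pre libraries held 3.21, 3.02, 3.49 and 4.75 CPM, the Fed libraries 3.995, 3.54, 3.83 and 5.46, and the Dep libraries 5.69, 5.47, 2.93 and 4.50. The 8 Mid libraries ran from 1.62 to 6.33 (median 4.61). All Post libraries lay above every Pre, Mid, Fed and Dep library, and HiT overlapped with Post, Mid, Fed and Dep.

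From the Mid to Post, Myh3 rose 1.91-fold (0.94 ± 0.24, FDR = 0.00304), which was the only call among the 9 member clusters where 35.0% of all clusters were called, and the call held with each library left out. Post was 2.33-fold above Pre (1.22 ± 0.28, FDR = 0.0247), the only member cluster called where 1.85% of all clusters were. This call was lost with any of 6 Pre and Post libraries left out (FDR = 0.0515 to 0.0862) and without TMM (FDR = 0.154). Post was also above Fed (1.00 ± 0.28, FDR = 0.0147) and above Dep (0.86 ± 0.28, FDR = 0.026, 1 of 9 called, background 24.6%). The call against Dep was lost without Post replicates 2, 3 or 4 or Dep replicates 3 or 4 (FDR = 0.0521 to 0.1), and that against Fed without Fed replicate 2 (FDR = 0.0523). HiT was above Mid by 1.72-fold (FDR = 0.0102), but this was lost without HiT replicate 2 (log2 fold change of Mid over HiT -0.52, FDR = 0.111). HiT was above Pre (1.06 ± 0.28, FDR = 0.00502) and above Fed (0.84 ± 0.28, FDR = 0.0183), the latter lost without HiT replicate 2 or Fed replicate 2 (FDR = 0.111 and 0.0533).

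The remaining pairs gave no called member cluster. From the Fed to Mid 0 of 9 were called, with none at an unadjusted p below 0.05, beside 35.2% of all clusters. None was called for Fed against Pre (background 11.2%), Dep against Pre (background 25.8%) or Fed against Dep (background 38.6%), where 2, 1 and 1 passed unadjusted. The leading promoter of Myh7 passed from the Fed to Mid without Mid replicate 2 or Fed replicate 3 (FDR = 0.0482 and 0.0463).

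In the second run 0 of 9 member clusters were called from the Pre to Mid (background 9.74%, none unadjusted) and 0 from the Mid to Post (background 16.4%, 1 unadjusted). By the library codes, all Post libraries and Mid replicate 13 of this run were on sequencing lane 4. The Pre and other Mid libraries were on lane 3. Lane and Post therefore coincide in the second run except for Mid replicate 13, and could be told apart only through that 1 library, which was not tried. Myh3, which rose from the Mid to Post in the first run, had 0.446 to 1.34 CPM in Mid and 0.548, 0.985 and 2.26 in Post, with 4 to 25 tags per library (0.38 ± 0.51, FDR = 0.66). Myh7 held 548, 548 and 327 CPM in Post and 335 to 443 in Mid (0.31 ± 0.17, FDR = 0.247), and passed without Post replicate 7 (0.52, FDR = 0.02). The change from the Pre to Mid did not differ between the runs for any member cluster in the interaction test (FDR = 0.997 to 0.999), in which 0.0% of all clusters were called. With 2 Pre libraries in the second run, the log2 difference for Myh1, 0.22 ± 0.25, and that for Myh4, -0.36 ± 2.15, had wide errors.

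Levels of the same genes differed between the runs, whose columns are also named differently in the table, and no test was made across them. Without TMM, the mean CPM of the leading promoter was 62.2-fold higher in the first run for Myh4, 10.7-fold for Myh1, 5.27-fold for Myh3, 2.84-fold for Myh7 and 1.26-fold for Myh2. The second Myh4 cluster had a median of 122% of the tags of the leading promoter in the second run, and at least 59.3%, against 1.03 to 4.61% in the first. Clusters elsewhere in the gene held a median of 58.7% of the tags of Myh1 in the second run and 14.5% in the first, and 34.9 and 33.8% of those of Myh2.

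Several members have very short first exons. The annotated first exon ended 23 bases after the tag peak in Myh1 and Myh2, 25 in Myh3 and 38 in Myh7. For Myh4 GENCODE gives 268, but the letters AGGTAGG, with GT as at a splice donor, stood 22 bases from the RefSeq start, which is the tag peak. Across all clusters with such a transcript, the median log2 ratio of the second to the first run was -0.70 for the 110 with 1 to 30 bases, 0.72 for the 462 with 31 to 60, 0.13 for the 1364 with 61 to 100 and -0.01 for the 3575 above 200. Myh2, with the same length as Myh1, moved by -0.34 and Myh1 by -3.42. The part of exon length, mapping and mice in these ratios was not tested, and levels and shares are therefore read within a run.

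**Figure D4:**
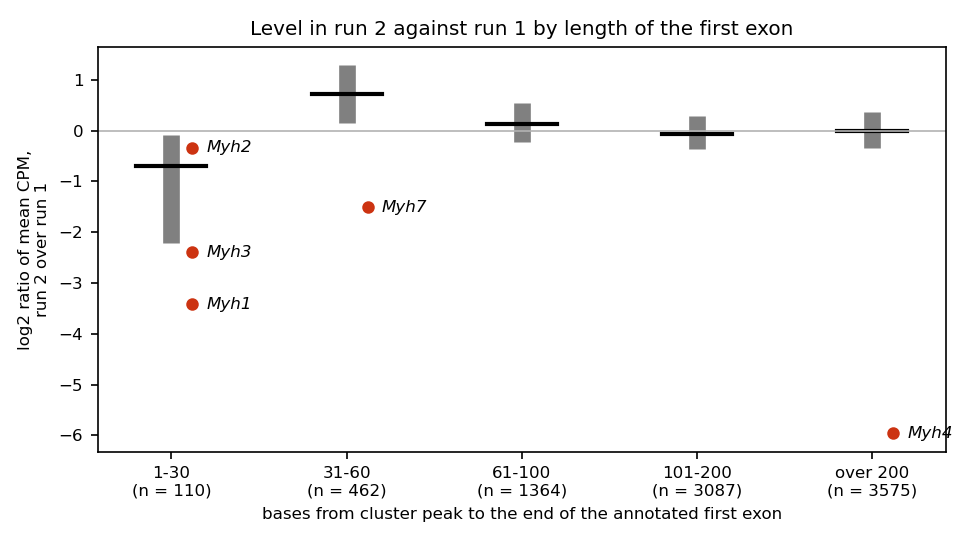
Log2 ratio of mean CPM in the second to the first run (vertical axis) by the number of bases from the cluster peak to the end of the annotated first exon (horizontal axis), with the median as a black line and the middle 50% of clusters as a grey bar, and the leading myosin promoters as points. The median was -0.70 for 1 to 30 bases and 0.72 for 31 to 60; Myh4 is drawn at its GENCODE length of 268, although the donor-like letters stood 22 bases from its RefSeq start.

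The levels of the 4 adult genes were next compared across muscles of a group, for 6 pairs of leading promoters. In the first run none of the 6 correlations passed adjustment. The largest was that of Myh7 with Myh4 (Pearson r = -0.51, permutation p = 0.015, adjusted p = 0.091; Spearman rho = -0.43, permutation p = 0.05, adjusted p = 0.3; n = 28), and r was -0.36 without the 2 libraries farthest from the median of Myh7. Without TMM this r was -0.18 (permutation p = 0.37, adjusted p = 0.43; Spearman rho = -0.12, permutation p = 0.55). In the second run it was r = -0.03 (permutation p = 0.84, adjusted p = 0.84; Spearman rho = -0.08, permutation p = 0.82, n = 10). Myh7 and Myh2 gave r = 0.25 in the first run (permutation p = 0.25, adjusted p = 0.76; Spearman rho = 0.34, permutation p = 0.13; without 2 libraries r = 0.17), and r = 0.61 with an adjusted permutation p of 0.017 where TMM was left out. Both pairs thus changed with the scaling.

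Levels were then compared with those of other promoters over the 28 libraries, after removal of the group means. Among 9432 clusters annotated to other genes, the 5 with the highest Pearson r with Myh4 were Myhas (0.95, Spearman rho 0.96), Actn3 (0.90, rho 0.91), Mybpc2 (0.86, rho 0.86), Pvalb (0.84, rho 0.87) and a minor cluster of Gpt2 (0.82, rho 0.79). Actn3 encodes the fast fibre actinin of the Z disc, Mybpc2 the fast myosin binding protein C, Pvalb the calcium buffer parvalbumin and Gpt2 a mitochondrial alanine aminotransferase. Actn3 ranged from 89.7 to 2081 CPM, Mybpc2 from 25.6 to 569.5 and Pvalb from 13.9 to 169 over these libraries. Of the 5, Actn3, Mybpc2 and Pvalb belong to a list of 18 fast fibre genes, and the other members of that list had lower r, from -0.21 for Tmod4 to 0.68 for Pygm, the muscle glycogen phosphorylase. These are descriptions over libraries that share group sizes and scaling, ranked from many clusters.

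**Figure D5:**
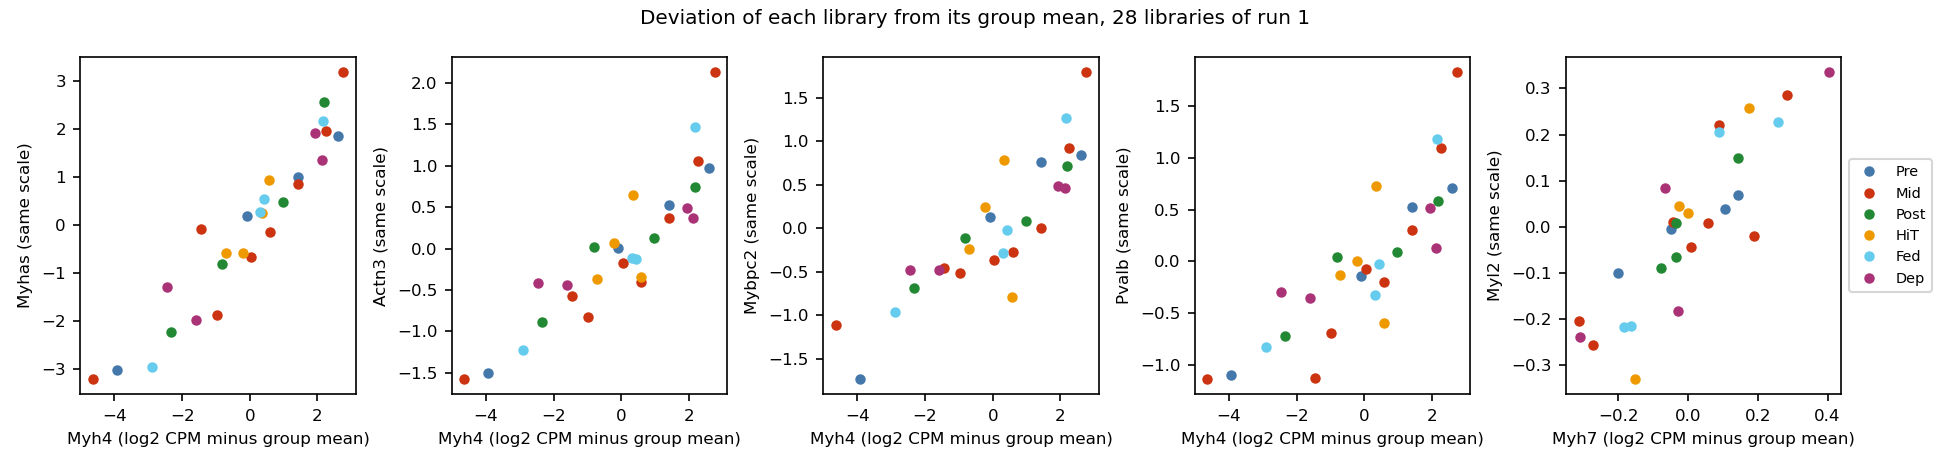
Deviation of each library of the first run from its group mean in log2 CPM, for Myh4 against Myhas, Actn3, Mybpc2 and Pvalb and for Myh7 against Myl2 (both axes), coloured by group. The Pearson r were 0.95, 0.90, 0.86, 0.84 and 0.87.

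The Myhas cluster lay on the minus strand of chromosome 11 from 67237073 to 67237542, with its peak at 67237456, 356 bases before that of Myh4 and pointing away from it. Myhas is an RNA antisense to the fast myosin genes. CAGE tags keep their strand, so the tags of Myhas and Myh4 are counted apart. It held 0.0567, 0.138, 0.0 and 0.0 CPM in HiT, 16.1, 4.30, 0.399 and 5.19 in Fed and 0.0 to 5.95 in Mid, and was called across the 6 groups (FDR = 0.00795). Its r with Myh1 was 0.01 and with Myh2 0.04. The fitted difference of Myhas from the HiT to Mid passed the threshold (FDR = 0.0234), and no fold is given because HiT libraries were at or near 0. A second non-coding cluster of the locus, 2310065F04Rik at 67116823 on the minus strand, was chosen after its values were seen. It followed Myh4 less closely (r = 0.59), had medians of 6.85 CPM in Fed, 4.72 in Pre and 0.842 in Mid, and was called across the groups (FDR = 5.19e-05) but not from the HiT to Mid (FDR = 0.454).

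For Myh7 the 5 closest clusters were those of Myl2 (0.87), Eif3g (0.72), a minor cluster of Tnni1 (0.69), Tnnc1 (0.68) and the ribosomal pseudogene Rpl23a-ps3 (0.68). Myl2 encodes the slow regulatory light chain, and Tnni1 and Tnnc1 slow troponins. For Myh2 they were Rdx (0.72), Rexo4 (0.68), Rnf6 (0.64), Vamp2 (0.63) and Bag3 (0.63), and for Myh1 Klf10 (0.67), Ttl (0.65), Mpst (0.65), Slc4a1ap (0.63) and Gpt2 (0.62). For Myh3 they were Tspan3 (0.83, rho 0.70), Mtrr (0.76, rho 0.56), Casq2 (0.76, rho 0.61), Gm10819 (0.75, rho 0.52) and Eef1g (0.75, rho 0.57). The rho for Myh3 were lower than the r, and Mid replicate 3 lay farthest from its group mean, at -1.32 in log2 CPM. No fast fibre structural gene was among the closest to Myh1 or Myh2.

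Lists of genes that accompany the fibre types were described beside the myosins, each gene by its highest promoter. Of 18 fast fibre genes, 12 differed across the groups of the first run, beside 70.6% of all clusters. From the Pre to Mid 5 fell and 0 rose (median log2 fold change -0.19, all clusters 0.01, background 30.2%), and from the HiT to Mid 3 rose and 1 fell (median 0.09, all clusters 0.02, background 41.0%). Gpd1, a glycolytic shuttle enzyme (-0.96, FDR = 0.0022), Casq1, the fast calsequestrin (-0.42, FDR = 0.0135), and Tmod4, a tropomodulin (-0.36, FDR = 0.000304), fell from the Pre to Mid. Pvalb (0.60, FDR = 0.361), Actn3 (0.33, FDR = 0.693) and Mybpc2 (0.28, FDR = 0.707) had the largest values in that comparison without a call. From the HiT to Mid Pvalb rose by 1.45 (FDR = 0.023), whereas Actn3 (1.27, FDR = 0.0797) and Mybpc2 (1.18, FDR = 0.0706) were not called. The low levels of these genes were not particular to HiT, since the Post libraries overlapped with it. Actn3 held 89.7 to 277 CPM in Post and 143 to 289 in HiT, Mybpc2 26.8 to 71.3 and 29.8 to 88.6, and Pvalb 15.2 to 37.5 and 13.9 to 35.1.

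Of 15 slow fibre genes with a cluster, 10 differed across the groups (background 70.6%), and from the HiT to Mid 6 rose and 3 fell (median 0.18, background 41.0%). Myl2 (0.51, FDR = 0.00153) and Myoz2, a Z disc protein (0.54, FDR = 3.21e-05), were higher in Mid than in HiT, as Myh7 was, and Casq2, the slow calsequestrin, was lower (-0.74, FDR = 4.04e-05). From the Pre to Mid 2 rose and 1 fell (background 30.2%): the stretch-responsive Ankrd2 (1.49, FDR = 3.61e-08) and Csrp3 (0.92, FDR = 0.000185) rose and Casq2 fell (-0.57, FDR = 0.0013). Actn2 (0.26, FDR = 0.0573), Myl2 (-0.13, FDR = 0.42) and Myoz2 (-0.02, FDR = 0.885) were not called.

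Of 19 thick filament genes with a cluster, 14 differed across the groups (background 70.6%), and from the Pre to Mid 3 rose and 1 fell (background 30.2%). Trim63, the ubiquitin ligase MuRF1 (2.42, FDR = 2.66e-07), and Mylk2, the light chain kinase (0.57, FDR = 0.0239), rose and Trim55 fell (-0.50, FDR = 0.00445). Ttn, which encodes titin (0.29, FDR = 0.0875), Mybph (-0.70, FDR = 0.422) and Mylpf (-0.20, FDR = 0.214) were not called in that comparison. From the HiT to Mid 10 of the 19 were called, 6 higher and 4 lower in Mid (background 41.0%). Among the lower were Mybph (-5.77, FDR = 1.67e-08) and Mylpf (-0.46, FDR = 0.00251), and Ttn was higher (0.48, FDR = 0.00498). Of 5 other class II myosin heavy chain genes with a cluster, 3 differed across the groups (background 70.6%). Myh10 (0.36, FDR = 0.0394) and Myh14 (0.40, FDR = 0.00851) rose from the Pre to Mid, and Myh9 (-0.15, FDR = 0.2) was not called there. From the HiT to Mid 1 of the 5 was higher and 1 lower in Mid (background 41.0%), the lower being Myh9 (-1.25, FDR = 5.89e-11).

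Of 31 genes listed as regulators of fibre type, 29 differed across the groups (background 70.6%), and 9 rose and 8 fell from the Pre to Mid (background 30.2%). The coactivator Ppargc1a (4.78, FDR = 7.07e-06) and Fnip1 (1.26, FDR = 7.94e-09) rose most, and Myod1, a myogenic factor (-2.17, FDR = 3.88e-06), Ppargc1b (-0.86, FDR = 0.00629) and Maf (-0.74, FDR = 0.00878) fell most. The adult myosin promoters were not called in the same comparison.

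Beside the embryonic gene Myh3, a list of genes of denervated or regenerating muscle was counted. From the HiT to Mid 9 of 14 with a cluster were lower and 0 higher (median -0.69, all clusters 0.02, background 41.0%), and Ncam1, Igf2, Cdh15, Dlk1 and Gadd45a were not called. The summed level was 1135 to 1502 CPM in HiT and 436 to 742 in the other groups, Post included. Ankrd1 alone, a stress-responsive titin-binding protein, held 509.98 to 664.7 CPM in HiT and 30.2 to 119.6 elsewhere. Without Ankrd1 the sum was 625.5 to 952 CPM in HiT and 372 to 660.0 elsewhere, which overlapped, and without Ankrd1 and the non-coding H19 it was 134 to 196 against 80.1 to 124. Myog (-2.54, FDR = 6.61e-13), Ankrd1 (-3.05, FDR = 1.62e-13), Runx1 (-1.31, FDR = 1.08e-06) and Actc1, the cardiac actin (-1.58, FDR = 2.3e-05), were lower in Mid than in HiT. From the Pre to Mid 2 of the 14 rose and 2 fell (background 30.2%), with Ankrd1 (1.16, FDR = 9.62e-06) and Gadd45a (0.74, FDR = 0.0134) up and Myod1 and Myog (-0.47, FDR = 0.0155) down. Runx1 (0.37, FDR = 0.134) and Actc1 (-0.40, FDR = 0.267) were not called in that comparison. Across the 6 groups 9 of the 14 were called (background 70.6%). Macrophage markers also moved with HiT. Of 7 with a cluster (Adgre1 had none) 7 were higher in HiT than in Mid (background 41.0%), and their sum was 173 to 391 CPM in HiT and 50.4 to 112 in the other groups. Their part in the Myh3 difference was not tested.

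The markers of other tissues did not rise with Myh4 within groups as the fast fibre genes did. These lists hold no marker of neighbouring muscles, so the presence of other muscle in a sample was not tested. The Pearson r of the Myh4 level with the summed markers was -0.30 for 7 adipocyte genes, -0.29 for 8 tendon genes, 0.16 for 4 Schwann cell genes and 0.01 for 5 red blood cell genes. It was 0.07 for 8 endothelial genes, -0.08 for 3 satellite cell genes, 0.02 for 4 smooth muscle genes and -0.03 for the macrophage genes, against 0.53 for the fast fibre genes (n = 28). Spearman rho was -0.38 for the adipocyte genes, 0.52 for the fast fibre genes and from -0.21 to 0.12 for the others. In HiT the sums were 261 to 919 CPM for adipocyte and 516 to 853 for tendon genes, overlapping the ranges of Pre (338 to 1090.2 and 653 to 697). The sums of red blood cell genes (1886 to 3285 CPM in HiT, 3601 to 5134 in Pre) and of smooth muscle genes (88.9 to 114 in HiT, 122 to 153 in Pre) did not overlap between these groups, and their part in the differences of HiT from Pre was not tested. Across the 6 groups, 1 adipocyte gene (Plin1), 1 tendon gene (Scx), 0 Schwann cell, 5 red blood cell, 7 macrophage, 7 endothelial, 2 satellite cell and 2 smooth muscle genes were called (background 70.6%). Ucp1, the thermogenic marker of brown fat, Pax7, Myf5 and Calcr of satellite cells, Alas2 of red cells, Cnn1 of smooth muscle, and Prx, S100b, Mag and Ncmap of Schwann cells had no cluster in the table.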

How the data were processed

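CAGE tags of 38 mouse soleus libraries were analysed from 1 table. The authors mapped reads to mm10 with BWA and HISAT2, of which the versions are not given in the sources used here, and clustered start sites with PromoterPipeline. The deposited counts are whole numbers of rescued tags per cluster without normalization. The deposited TPM values are the same counts per 1000000 tags of the library, and were used only as an alternative for correlations. Every value column matched a library by its code in the labels. Members and gene lists were chosen with earlier results of these data known.

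Clusters were assigned to GENCODE M21 5′ ends within 500 bp. The tests on counts used edgeR 4.0.16 under R 4.3.3 (TMM, quasi-likelihood F test, Benjamini-Hochberg over all 10776 clusters of run 1 or 10816 of run 2, threshold 0.05), 1 fit per run with group as the only term. The TMM factors ran from 0.679 to 1.21. The design held 6 pairs of groups in run 1, the test across the 6 groups, 2 pairs in run 2 and the interaction of the runs; the 9 other pairs of groups, and the list sums without Ankrd1 or H19, were added after seeing the data. Correlations used log2 CPM (prior count 2) minus the group mean, with 100000 permutations of libraries within groups, two-sided, adjusted over 6 pairs per run. The rule for named genes took all member clusters, the 5 most alike clusters (mean of at least 1 CPM), and, from each fixed list, the genes called across the 6 groups with the 3 largest and 3 smallest changes from Pre to Mid; a gene that this rule names among the fibre type regulators is not reported here, and genes of other lists are given as counts or with their values from HiT to Mid. Alternatives were the likelihood ratio test, DESeq2 1.42.0, no TMM, upper-quartile and RLE scaling, filterByExpr, a replicate block, fits of fewer or of all 38 libraries, and each library left out. The code was tested on simulated data. Permutations ran in scipy 1.17.1 with Python 3.11.15. Each library is 1 mouse, so p-values measure the spread between mice. At 69 tags or more, counting error of the leading Myh4 promoter in run 1 was small beside the spread, whereas 2 to 134 tags in run 2 were few.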

Additional observations from a re-analysis of the deposited data

Results flagged for a closer look

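In the first run, Post replicate 1 had the highest level of the Myh2 leading promoter in its group, at 1046 CPM, while the other 3 Post libraries lay between 919 and 927, so that its gap to the nearest was 0.941 of the range of the group. It was the only such library in 35 sets of 4 to 8 libraries checked by this measure, in which chance alone gives about 1 in 20.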

How the results depend on the processing

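Of the counts of called member clusters, that from the Pre to Mid went from 0 to 1 (Myh1) with DESeq2, upper-quartile scaling and all 38 libraries, and 0 to 1 over libraries left out. From the Mid to Post it went from 1 to 2 with DESeq2 and with all 38 libraries. Post against Pre had 0 without TMM (0 to 1 over libraries left out), Dep against Pre 1 with upper-quartile scaling (0 to 1), Post against Dep 2 with DESeq2, upper-quartile scaling or only these groups (0 to 2), and Post against Fed 4 with the likelihood ratio test, 4 with DESeq2 and 0 without TMM (0 to 4). Over libraries left out, the counts were 2 to 4 from the HiT to Mid (2 without HiT replicate 2), 1 to 2 for Post against HiT, and 0 to 1 from the Fed to Mid, for Fed against Pre, for Fed against Dep and from the Mid to Post in the second run. Without TMM, Myh3 lost its calls for HiT against Mid (FDR = 0.0634) and Fed (FDR = 0.141) and Post against Fed (FDR = 0.104), and all clusters called fell from 3253 to 1458 from the Pre to Mid, from 4422 to 2323 from the HiT to Mid and from 7609 to 4237 across the 6 groups. The calls of the Myh4 leading promoter in HiT against Mid, Fed, Pre and Dep held under every alternative run. No called value reversed.

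Across the 6 groups 4 member clusters were called with a replicate block over libraries numbered 1 to 4, Myh2 being lost (FDR = 0.0997, and 0.105 in these libraries without the block). The numbers did not pair the mice: the mean correlation of same-numbered libraries was -0.006, and 4 of 24 libraries correlated best with their own number.

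The median share of Myh4 tags in the second run was 0.699% and 0.359% by leading promoters alone. Without TMM and by TPM, r in the first run was 0.612 and 0.611 for Myh7 with Myh2, -0.184 and -0.184 for Myh7 with Myh4, 0.228 and 0.228 for Myh2 with Myh4, 0.39 and 0.386 for Myh7 with Myh1, 0.458 and 0.455 for Myh2 with Myh1 and 0.16 and 0.16 for Myh1 with Myh4. The causes were not tested. In the second run 2 to 134 tags limit Myh4 and 4 to 25 limit Myh3.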
